A study of Mus musculus with 5 samples.

Results

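The genes described are 33 members of glycolysis and of the cellular response to low oxygen, chosen by symbol from the gene table of the study: 4 transporters of glucose and lactate (Slc2a1, Slc2a3, Slc16a1, Slc16a3), 11 genes of the preparatory phase of glycolysis (Hk1, Hk2, Gpi1, Pfkl, Pfkm, Pfkp, Pfkfb3, Pfkfb4, Aldoa, Aldoc, Tpi1), 5 of its payoff phase (Gapdh, Pgk1, Pgam1, Eno1, Pkm), 3 that decide the fate of pyruvate (Ldha, Ldhb, Pdk1), 3 of oxygen sensing (Hif1a, Egln1, Egln3) and 7 targets of the hypoxia response (Vegfa, Bnip3, Ndrg1, Adm, Ddit4, Ankrd37, P4ha1). All 33 symbols were found among 31053 annotated genes, on 34 lines, because Aldoa stands under a pair of identifiers. The line ENSMUSG00000030695 is meant by Aldoa here, and the other held 4 UMIs in the fibroblast-like cells of the WT libraries. Each member had at least 1 UMI (a unique molecular identifier, that is, a counted transcript) in each of the 5 libraries. Ventral skin of mice of the C57BL/6J strain, taken 28 days after birth, was dissociated and sequenced cell by cell with 10x 3' chemistry. The design held 2 libraries of wild-type mice (WT) and 3 of mice with Prx1Cre and floxed Ikkb alleles (Ikkb_cKO), each from a pool of 2 mice. Prx1Cre is driven by a Prrx1 enhancer and acts in limb and ventral body wall mesenchyme, which gives rise to fibroblasts of the ventral skin. The labels name no floxed or Cre allele for the WT group and no agent for either genotype. A p-value here measures the spread between libraries, that is, between pools of mice.

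Glycolysis splits glucose into pyruvate: hexokinases trap the sugar in the cell, phosphofructokinases set the pace, the payoff phase regains ATP, and lactate dehydrogenases interconvert pyruvate and lactate, which monocarboxylate transporters carry across the membrane. Oxygen-dependent prolyl hydroxylases (Egln1, Egln3) mark the transcription factor subunit HIF-1α, encoded by Hif1a, for destruction, and when it escapes them it binds DNA with ARNT and raises many genes of glucose uptake, glycolysis and blood vessel growth. NF-kB, the pathway in which the kinase encoded by Ikbkb acts, is one known inducer of Hif1a transcription, and skin is a tissue with low oxygen even at rest.

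The form GCGTG of the HIF binding core was not searched, so that every count here is of the form ACGTG only. The core meant below is ACGTG on either strand (CACGT on the strand printed). The 250 bases before the transcription start were searched for it in RefSeq promoters of GRCm38.p6, of which 31 of the 33 members had at least 1; Slc2a3 and Ndrg1 had none in the table. The letters were found for 19 of these 31 genes (61.3%), against 18.5% of 27025 genes with a promoter window. Counted by window, since a gene can have several, it was 22 of 45 member windows (48.9%) against 16.6% of all 32851 windows. Of the members that rose in fibroblast-like cells, 10 of 11 with a window held the core, as did 2 of 5 that fell and 7 of 14 that did neither. Member windows were rich in CG, with a median of 14 CG steps against 6 over all windows, and of the windows with at least 14 CG steps 25.1% held the core. A match is a stretch of letters and was not tested for binding. Shown are 6 windows that overlap no annotated exon, because they belong to members on which the results turn: 4 that rose in fibroblast-like cells and the lactate dehydrogenase pair, which fell. Capitals mark the core, and a palindromic CACGTG, the E-box that other factors also bind, is a match on both strands and was counted once.
Hk2, chr6:82774455-82774704, minus strand: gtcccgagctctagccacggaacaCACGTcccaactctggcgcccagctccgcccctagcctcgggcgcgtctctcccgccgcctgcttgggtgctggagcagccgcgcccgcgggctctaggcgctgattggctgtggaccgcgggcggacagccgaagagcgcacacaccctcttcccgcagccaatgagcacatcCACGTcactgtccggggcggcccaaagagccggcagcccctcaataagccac
Egln3, chr12:54203875-54204124, minus strand: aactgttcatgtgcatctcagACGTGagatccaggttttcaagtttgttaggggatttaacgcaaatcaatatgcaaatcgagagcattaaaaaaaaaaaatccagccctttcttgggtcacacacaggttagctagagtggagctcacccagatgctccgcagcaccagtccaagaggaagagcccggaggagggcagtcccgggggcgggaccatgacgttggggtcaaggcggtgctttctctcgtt
Hif1a, chr12:73907617-73907866, plus strand: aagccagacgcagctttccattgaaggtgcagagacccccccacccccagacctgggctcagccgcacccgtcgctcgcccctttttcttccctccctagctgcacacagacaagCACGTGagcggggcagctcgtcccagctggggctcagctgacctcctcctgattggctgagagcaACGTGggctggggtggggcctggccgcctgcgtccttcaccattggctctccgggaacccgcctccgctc
Slc16a1, chr3:104638414-104638663, plus strand: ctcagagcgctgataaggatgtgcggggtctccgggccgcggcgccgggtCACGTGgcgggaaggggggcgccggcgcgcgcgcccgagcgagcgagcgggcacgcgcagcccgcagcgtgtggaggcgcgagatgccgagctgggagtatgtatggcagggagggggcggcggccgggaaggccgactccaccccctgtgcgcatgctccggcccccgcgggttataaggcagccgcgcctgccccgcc
Ldha, chr7:46845554-46845803, plus strand: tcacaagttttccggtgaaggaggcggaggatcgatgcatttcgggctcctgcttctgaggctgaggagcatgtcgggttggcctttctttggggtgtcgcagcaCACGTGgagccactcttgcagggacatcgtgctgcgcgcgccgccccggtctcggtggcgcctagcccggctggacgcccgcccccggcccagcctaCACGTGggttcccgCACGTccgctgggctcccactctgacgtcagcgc
Ldhb, chr6:142507958-142508207, minus strand: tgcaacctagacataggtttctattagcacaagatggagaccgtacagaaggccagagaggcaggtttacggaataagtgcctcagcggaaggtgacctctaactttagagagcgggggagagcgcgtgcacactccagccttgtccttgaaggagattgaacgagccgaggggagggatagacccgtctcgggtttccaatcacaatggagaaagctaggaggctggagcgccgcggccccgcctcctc
The Hk2 window held the core at 226 and 52 bases before the start, Egln3 at 229, Hif1a at 135 and 70, and Slc16a1 at 200. Ldha held 3 and Ldhb held none in the ACGTG form. A second Ldha window held none in this form either.

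The libraries held 14659158 and 16773096 UMIs in WT and 2163166, 2350022 and 9738296 in Ikkb_cKO, and 10390 of 11084 barcodes were kept. Cells were grouped without the member genes and named from markers: 5562 were fibroblast-like, 2498 myeloid-like and 1162 lymphocyte-like, and these were tested. Fibroblast-like cells were shallower in Ikkb_cKO, with median UMI counts of 4823 and 5261 in WT against 1551, 1767 and 2460, and their median mitochondrial share was 2.09% and 2.13% against 3.49%, 3.23% and 3.43%. Ikkb_cKO library 3 stood apart from libraries 1 and 2. In fibroblast-like cells the chi-square per degree of freedom between libraries was 1.52 for Ikkb_cKO 1 and 2, 14.2 and 15.0 for each of them and library 3, and 4.90 for the WT pair. No barcode was shared by Ikkb_cKO 1 and 2, and other pairs shared 1 to 17, and no pair was a copy. Ikbkb itself was not called in fibroblast-like cells (log2 0.08 ± 0.22, adjusted p = 0.813); a 3' tag can lie outside the deleted exons, and this checks nothing. Levels below are CPM, the UMIs of a gene per 1000000 UMIs of the summed cells, and beside a test they are normalised for composition (TMM). In sums over cells, fewer cells of a type and less RNA per cell cannot be told apart.

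The levels in WT skin are given by class as a description, without a test. Skeletal muscle-like cells carried the pathway at levels of their own: the 33 members took 6.54% and 6.65% of their UMIs in the 2 WT libraries, against 0.285% and 0.276% in fibroblast-like cells. Aldoa, the aldolase of muscle, stood at 37067 and 38831 CPM in muscle-like cells and at 516 on average in fibroblast-like cells, and Gapdh at 13379 and 13044 against 475. Ldha, the muscle form of lactate dehydrogenase, was at 6897 and 6773 CPM there, Tpi1 at 3023 and 2872, and Pfkm, the muscle phosphofructokinase, at 462 and 302 against 13.2 in fibroblast-like cells. The muscle marker sum in fibroblast-like cells was 7.69 to 91.0 CPM over the 5 libraries, so that muscle RNA was present there at a low but uneven level in both genotypes. Muscle-like cells numbered 78 and 63 in WT and 18, 25 and 1 in Ikkb_cKO. The part of muscle RNA in the genotype differences below was not tested. Mast-like cells had 1512 and 1689 CPM of Ldha, above the lymphocyte-like (963 and 1037) and the myeloid-like cells (309 and 361).

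**Figure D1:**
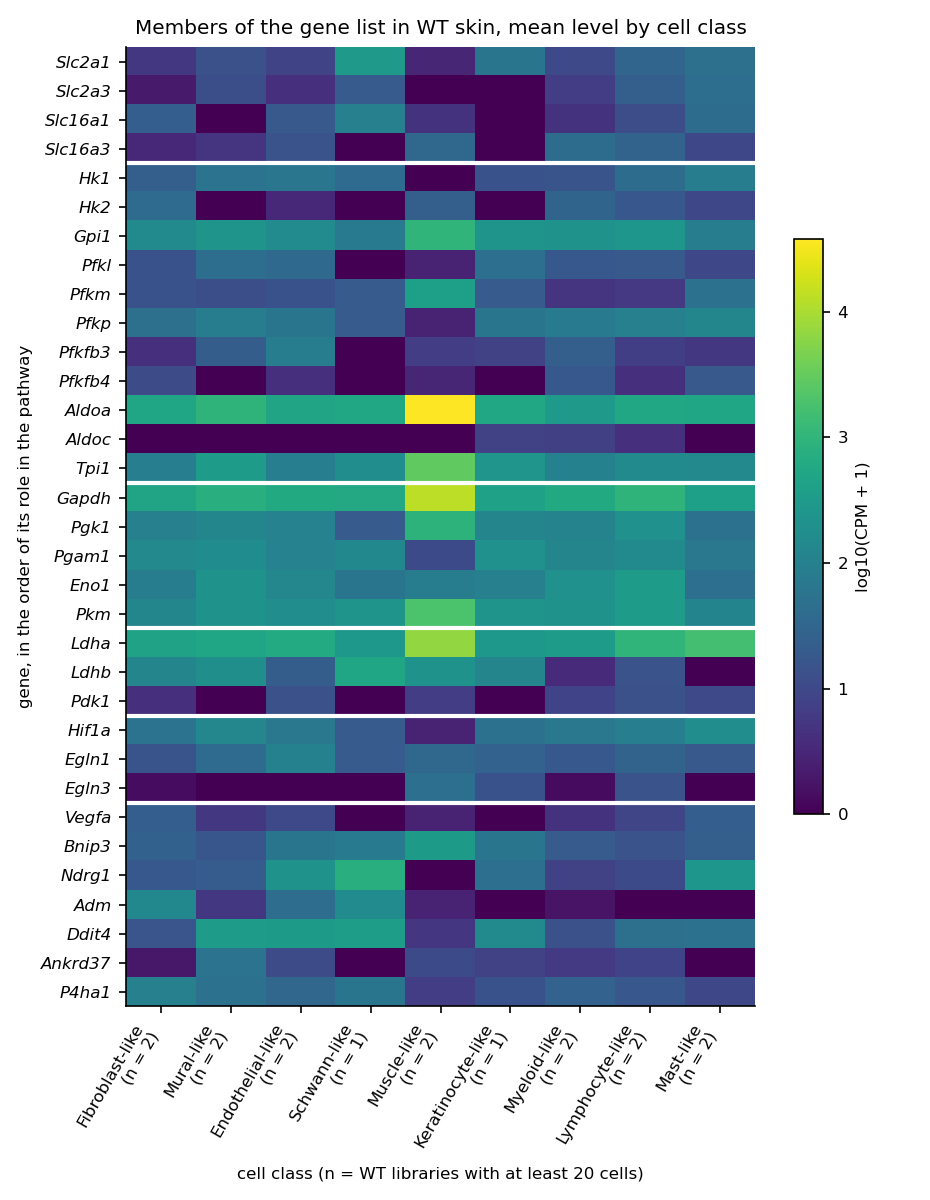
Mean level of each member in WT skin, as log10 (CPM + 1), by cell class (columns) in the order of the members' roles (rows, separated by white lines); n is the number of WT libraries with at least 20 cells of the class. Muscle-like cells hold the highest Aldoa, Gapdh, Ldha and Tpi1, and Ldhb runs from 0 in mast-like to 495 CPM in Schwann-like cells.

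The hypoxia members had other peaks. Ddit4, a stress-induced brake on mTOR, was at 319 and 316 CPM in endothelial-like and at 206 and 462 in mural-like cells, against 14.8 on average in fibroblast-like cells. Endothelial-like cells also had 75.0 and 97.7 CPM of Pfkfb3, which makes the activator of phosphofructokinase and drives glycolysis in vessel sprouts, against 3.21 in fibroblast-like cells. Schwann-like cells reached 20 cells in WT library 1 only. There Ndrg1, a gene needed for myelin upkeep, stood at 753 CPM, Ldhb at 495 and Slc2a1, the basal glucose transporter, at 297. Ldhb is the heart form of lactate dehydrogenase. Among classes with at least 20 cells in both WT libraries, it was highest in muscle-like (231 and 218 CPM) and mural-like cells (197 and 189). Fibroblast-like cells followed (119 on average), and it was far lower in lymphocyte-like (13.6) and myeloid-like cells (2.71). Keratinocyte-like cells, with 14 and 27 cells in WT, are left out of this order. Adm, which encodes the vasodilator adrenomedullin, had 136 CPM in fibroblast-like, 42.1 in endothelial-like and 0.749 in myeloid-like cells, although Schwann-like cells had 158 in their 1 library.

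In fibroblast-like cells of the Ikkb_cKO libraries, transporters, hexokinase 2 and the oxygen-sensing genes rose, and the lactate dehydrogenases and aldolase fell. Of 33 members, 31 passed the filter on low counts, and 12 of these were higher and 5 lower in Ikkb_cKO at an adjusted p below 0.05 by edgeR's quasi-likelihood test. Over all 10538 genes 35.3% were called, 17.4% higher and 17.9% lower, so that a call is common here. The median log2 fold change was 0.16 over the 31 members and 0.05 over all genes. The genotypes did not overlap for 22 of the 31 members, against 61.0% of all genes. Slc2a3 and Aldoc, with 26 and 0 UMIs in WT and 6 and 2 in Ikkb_cKO, were not tested.

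Of the transporters 3 of 3 tested members were called higher, with a median log2 fold change of 2.87. Slc16a3, the lactate exporter MCT4 of glycolytic cells, stood at 2.68 and 1.81 normalised CPM in WT and at 33.6, 28.7 and 43.6 in Ikkb_cKO. All 3 Ikkb_cKO libraries lay far above both WT libraries, at log2 4.00 ± 0.30 (standard error, as after every log2 value; adjusted p = 0.00128). Slc2a1 stood at 4.37 and 5.08 in WT and at 25.7, 38.3 and 38.5 in Ikkb_cKO, a log2 fold change of 2.87 ± 0.25 (adjusted p = 0.00145). Slc16a1, which encodes the lactate carrier MCT1, stood at 22.4 in both WT libraries and at 47.4, 59.2 and 69.1 in Ikkb_cKO (log2 1.41 ± 0.19, adjusted p = 0.00342). For each of the 3 genes the genotypes were separate.

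Inside the pathway the steps did not move together. Hk2, the inducible hexokinase, stood at 42.9 and 35.4 normalised CPM in WT and at 196, 131 and 454 in Ikkb_cKO, where library 3 was the highest (log2 2.75 ± 0.58, adjusted p = 0.0191). Hk1, the housekeeping hexokinase, stood at 23.7 and 23.1 in WT and at 28.6, 21.8 and 23.6 in Ikkb_cKO. Of the other preparatory genes, Aldoa fell from 535 and 519 to 199, 211 and 203 (log2 -1.36 ± 0.12, adjusted p = 0.00145), and Gpi1, the isomerase after hexokinase, from 157 and 147 to 96.8, 80.1 and 103 (log2 -0.70 ± 0.15, adjusted p = 0.0139). The phosphofructokinases Pfkl, Pfkm and Pfkp and their regulators Pfkfb3 and Pfkfb4 were not called, nor was Tpi1; Pfkp, the platelet form, was at 97.8 and 100 in Ikkb_cKO libraries 1 and 2 but at 49.1 in library 3, next to 49.3 and 47.3 in WT.

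None of the 5 payoff genes passed the test by edgeR, 1 had an unadjusted p below 0.05, and DESeq2 called none of them either. Gapdh stood at 491 and 478 normalised CPM in WT and at 367, 428 and 403 in Ikkb_cKO, and Pgk1 at 98.2 and 98.4 against 99.7, 94.9 and 130. Their log2 fold changes ran from -0.39 (Eno1) to 0.15 (Pgk1). Eno1 reads could be split with the near copy Eno1b, which fell (log2 -2.32 ± 0.32, adjusted p = 0.00336) from 12.5 and 10.8 to 1.97, 1.74 and 2.75. Without Ikkb_cKO library 3, edgeR called 10 members lower in place of 5. Among them were Gapdh (log2 -0.30, adjusted p = 0.00600), Pgam1 (log2 -0.47, adjusted p = 0.000553) and Eno1 (log2 -0.42, adjusted p = 0.00902). With all libraries, limma's voom also called 10 lower, with these 3. Lower calls rose over all genes too, from 1887 of 10538 to 2863 of 11705 without this library and to 2369 of 10538 with voom.

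The genes at the fate of pyruvate held the largest fall. Ldhb stood at 122 and 120 normalised CPM in WT and at 7.90, 9.58 and 4.32 in Ikkb_cKO, 18.2 times lower (log2 -4.18 ± 0.27, adjusted p = 0.00122). Every Ikkb_cKO library was below 10 and both WT libraries were above 100. Ldha fell less, from 464 and 426 to 235, 192 and 264 (log2 -0.95 ± 0.16, adjusted p = 0.00636). Ldhb therefore made up 20.9% and 22.0% of the UMIs on the 2 genes in WT and 3.25%, 4.74% and 1.61% in Ikkb_cKO. A Ldhb UMI was seen in 22.5% and 25.0% of WT fibroblast-like cells and in 1.13%, 2.03% and 1.04% of Ikkb_cKO cells; in WT myeloid-like cells, at median depths of 2564 and 2696 UMIs, it was seen in 0.618% and 0.815%. With each cell thinned to 1000 UMIs, which left 1687 and 1816 WT cells and 382, 381 and 736 Ikkb_cKO cells, the fibroblast shares were 6.17% and 5.62% against 0.785%, 0.525% and 0.408%. Pdk1, the kinase that shuts pyruvate out of the mitochondrial dehydrogenase, rose from 3.58 and 2.92 to 7.90, 12.2 and 10.2 (log2 1.64 ± 0.29, adjusted p = 0.00682).

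All 3 sensing genes rose. Hif1a stood at 57.7 and 52.5 normalised CPM in WT and at 170, 145 and 231 in Ikkb_cKO (log2 1.73 ± 0.22, adjusted p = 0.00292). Egln3, the hydroxylase most induced by low oxygen in many cells, was nearly silent in WT at 0.199 and 0.602 and reached 9.87, 26.1 and 13.4 (log2 5.21 ± 0.58, adjusted p = 0.00224). Egln1, the main hydroxylase, rose from 14.0 and 16.2 to 36.5, 17.4 and 43.6 (log2 1.15 ± 0.34, adjusted p = 0.0379). Its Ikkb_cKO library 2 lay next to WT, and the call was lost without Ikkb_cKO library 1 (adjusted p = 0.0961), WT library 1 (0.264) or WT library 2 (0.194).

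Of the 7 targets 4 rose and 1 fell. Vegfa, the vessel growth factor, stood at 23.4 and 22.1 normalised CPM in WT and at 84.9, 81.0 and 141 in Ikkb_cKO (log2 2.19 ± 0.28, adjusted p = 0.00276). Ndrg1 rose from 17.3 and 18.0 to 80.0, 66.2 and 292 (log2 3.08 ± 0.75, adjusted p = 0.0275), with library 3 far above the other Ikkb_cKO libraries. Bnip3, a mitophagy receptor, rose from 26.9 and 25.6 to 52.3, 50.5 and 68.3 (log2 1.14 ± 0.19), and Ankrd37 from 0.894 and 1.03 to 4.94, 2.61 and 5.89 (log2 2.28 ± 0.49). Adm went the other way, from 148 and 128 to 63.2, 80.1 and 80.9 (log2 -0.88 ± 0.16, adjusted p = 0.00828). Ddit4 and P4ha1, a collagen prolyl hydroxylase, were not called, and Ddit4 was at 6.91, 4.35 and 21.2 in Ikkb_cKO around 14.9 and 15.4 in WT.

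**Figure D2:**
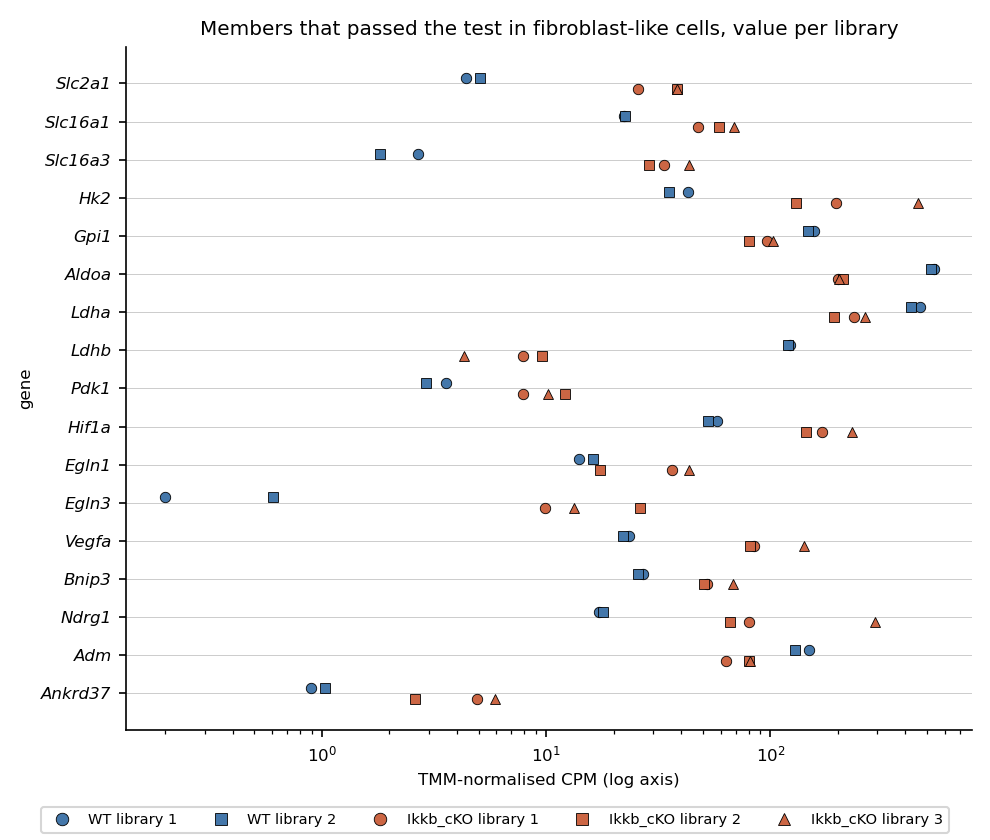
Normalised CPM (log axis) of the 17 members that passed the test in fibroblast-like cells; each point is 1 library, blue for WT and orange for Ikkb_cKO, and the shape gives the library number. The Ikkb_cKO points lie to the right of both WT points for 12 genes and to the left for Gpi1, Aldoa, Ldha, Ldhb and Adm, and library 3 lies apart for Hk2 and Ndrg1.

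Other genes of these pathways were split in the same class. Of 39 further hypoxia genes 34 were tested, 10 higher and 5 lower: Epas1, which encodes HIF-2α, stood at 13.3 and 13.8 normalised CPM in WT and 71.1, 61.8 and 39.3 in Ikkb_cKO (log2 2.05 ± 0.27), and Loxl2 rose, while Car12, a carbonic anhydrase, fell, and Angptl4, a lipase inhibitor, fell from 239 in both to 90.8, 73.2 and 89.2 (log2 -1.50 ± 0.15). Around the mitochondrial use of pyruvate 1 of 18 tested genes rose and 5 fell, among them Mdh2, the malate dehydrogenase (204 and 201 against 81.0, 81.0 and 88.0), and Pdk2 (14.7 and 11.5 against 1.97, 0.871 and 2.36). Taldo1 and Pgls, of the pentose phosphate pathway, fell and the other 6 of its 8 genes were not called. Of 10 other glycolysis genes tested Pgp, a phosphatase, fell from 53.4 and 53.2 to 26.7, 37.5 and 21.2, and the other 9 were not called.

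Handling and library differences ran beside these calls. The summed level of 20 dissociation genes was 17667 and 16190 CPM in WT fibroblast-like cells and 25077, 25605 and 17447 in Ikkb_cKO, with 4 of the 20 higher and 1 lower. Its part in the result was not tested. The counts that follow come from fits with 1 WT sample left. Far fewer genes were called in these fits over all genes as well, so that the losses are not particular to the members. Leaving out WT library 1 kept 7 of the 17 calls, and leaving out WT library 2 kept the same 7, namely Slc2a1, Slc16a3, Egln3, Hif1a, Vegfa, Aldoa and Ldhb, and summing the WT libraries to 1 sample and Ikkb_cKO libraries 1 and 2 to another kept Slc16a3, Egln3 and Ldhb.

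The makeup of the fibroblast-like class differed between the genotypes. Cells led by Col6a5 were 0.056% and 0.105% of it in WT and 70.1%, 68.5% and 29.5% in Ikkb_cKO. Crabp1/Postn fibroblasts, a dermal type, were 16.7% and 18.5% in WT and at most 0.407% in Ikkb_cKO, Pi16/Dpp4 fibroblasts 12.6% and 13.6% against at most 0.189%, and Coch fibroblasts 39.2% of Ikkb_cKO library 3 alone, against 1.70% to 4.45% elsewhere. Clusters without a name, 1 (led by Pltp and Tgfbi), 4 (Mgp and Inmt) and 5 (Thbs4 and Cilp), had at least 20 cells in every library and were tested one by one.

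Ldhb was unevenly spread over these clusters. In WT it stood at 219 and 225 CPM in Crabp1/Postn fibroblasts, at 219 and 192 in cluster 3 (led by Fabp4 and Cd36) and at 224 and 181 in cluster 16 (Acta2 and cell-cycle genes). It was at most 37.1 CPM in the other WT clusters. These clusters held 42.0%, 41.5% and 11.1% of the Ldhb UMIs of the class in WT library 1 and 49.8%, 37.8% and 6.37% in WT library 2. Cells of cluster 3 remained in Ikkb_cKO libraries 1 and 2 (35 and 24 cells), with 42.4 and 47.0 CPM from 5 and 4 UMIs. Cluster 16 kept 9, 11 and 14 cells in Ikkb_cKO libraries 1, 2 and 3, with 0, 0 and 1 Ldhb UMIs among 18451, 51449 and 55730. In clusters 1, 4 and 5 summed, an alternative chosen after seeing the data, Ldhb had a log2 fold change of -0.62 ± 0.39 (adjusted p = 0.242) and Ldha of -0.18 ± 0.17 (adjusted p = 0.440). The class-wide fall and the small number of cells in the high clusters were seen in the same libraries.

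Hif1a and Hk2 rose within each of the 3 clusters tested. Of 20 members tested in cluster 1, 5 were higher and 1 lower (21.6% of 5626 genes called), of 12 in cluster 4, 3 and 2 (27.5% of 2093), and of 10 in cluster 5, 2 and 3 (42.2% of 1643). The members' median log2 fold changes were 0.19, -0.26 and -0.10. Hk2 stood at 68.3 and 58.5 normalised CPM in WT and 439, 235 and 402 in Ikkb_cKO cells of cluster 1 (log2 2.60 ± 0.20, adjusted p = 2.26e-09), and its log2 fold changes were 3.31 ± 0.38 in cluster 4 and 3.27 ± 0.33 in cluster 5. Hif1a stood at 59.6 and 62.9 against 169, 181 and 190 in cluster 1 (log2 1.61 ± 0.21), at 23.7 and 26.0 against 233, 122 and 298 in cluster 4 (log2 3.23 ± 0.39), and at 56.1 and 53.3 against 245, 180 and 303 in cluster 5 (log2 2.15 ± 0.28). The genotypes were separate for both genes in each cluster. Vegfa rose in cluster 1 (log2 0.94 ± 0.25) and in cluster 4, from 60.4 and 59.0 to 210, 427 and 290 (log2 2.35 ± 0.31). Ndrg1 and Slc16a1 rose in cluster 1. Cluster 1 counts were unstable: 2 members were higher without WT library 1, 3 without WT library 2 and 2 without Ikkb_cKO library 3, and none with the replicate number as a block. In cluster 5, 4 were higher without Ikkb_cKO library 1, and 4 without library 2.

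Aldoa fell in all 3 clusters, most in cluster 5, from 632 and 616 normalised CPM to 260, 244 and 210 (log2 -1.40 ± 0.20, adjusted p = 0.000357). The Ikkb_cKO counts behind these 3 values were 18, 19 and 18 UMIs. In cluster 1 the Aldoa groups nearly met, with 354 in Ikkb_cKO library 1 beside 366 and 428 in WT (log2 -0.71 ± 0.24, adjusted p = 0.0336). Adm fell in clusters 4 (log2 -1.67 ± 0.32) and 5 (log2 -1.09 ± 0.29), and Gapdh in cluster 5 (log2 -0.58 ± 0.19, adjusted p = 0.0260). Without WT library 1, clusters 4 and 5 each had 1 lower member. In the 3 clusters summed, 6 of 24 members tested were higher (Slc2a1, Slc16a1, Slc16a3, Hk2, Hif1a, Vegfa). Another 3 were lower (Aldoa, Adm and Tpi1, the last not called in the whole class). Of all 7170 genes tested there, 943 were higher and 1030 lower, so that a call was common. The Col6a5 cells, nearly absent from WT, had 140, 78.3 and 659 CPM of Hk2 and 166, 159 and 351 of Hif1a, so that library 3 was again the highest.

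**Figure D3:**
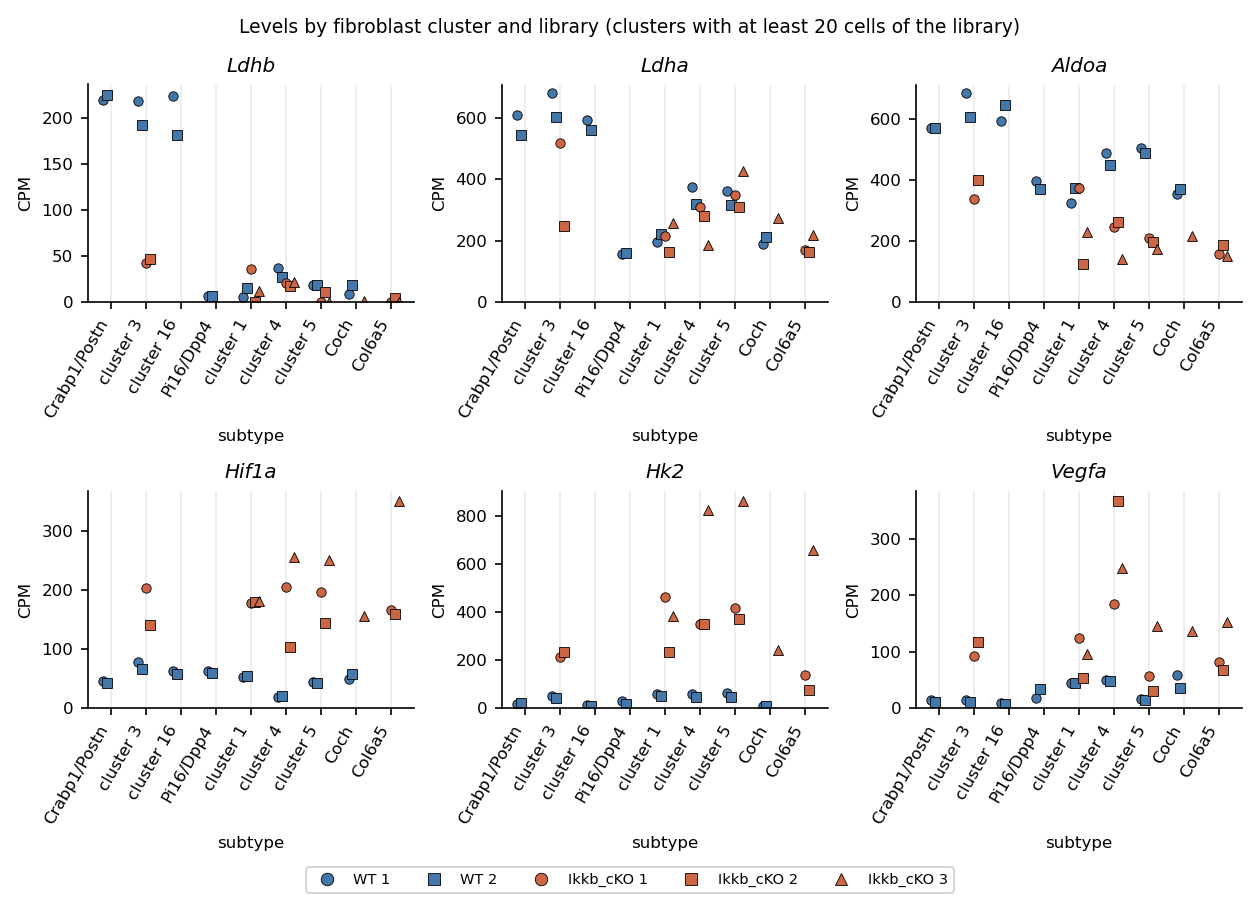
CPM of 6 members by fibroblast cluster (horizontal) for each library with at least 20 cells of the cluster; blue is WT, orange Ikkb_cKO, and the shape gives the library. Ldhb is above 180 CPM in the WT cells of 3 clusters and at most 47.0 in each Ikkb_cKO point, while Hif1a and Hk2 of Ikkb_cKO lie above WT in clusters 3, 1, 4 and 5.

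In myeloid-like cells the members that changed went up. Of 29 members tested 12 were higher and 0 lower by edgeR; 18 had an unadjusted p below 0.05, and DESeq2 called 11 higher and 0 lower. Ankrd37, Hk2, Pfkp, Slc16a3 and Vegfa were called whichever single library was left out. Hif1a, Gapdh, Pkm, Slc2a1 and Slc2a3 lost their call both without WT library 1 and without WT library 2. Those fits leave 1 WT sample. Far fewer genes were called in them over all genes too, so that the losses are not particular to the members. Over all settings the log2 fold change ran from 0.82 to 1.25 for Hif1a, 0.57 to 0.78 for Gapdh and 0.54 to 1.07 for Pkm. It ran from 1.22 to 2.27 for Slc2a1 and from 0.21 to 2.13 for Slc2a3. With all libraries, 18.3% of all 8941 genes were called, 8.76% higher and 9.52% lower. The median log2 fold change was 0.73 over the members and 0.00 over all genes, and the genotypes did not overlap for 18 of the 29 members, against 45.0% of all genes. All 4 transporters rose: Slc16a3 stood at 37.6 and 43.6 normalised CPM in WT and at 108, 168 and 128 in Ikkb_cKO (log2 1.72 ± 0.24, adjusted p = 0.000950), Slc2a1 at 7.98 and 10.4 against 22.1, 21.0 and 33.4 (log2 1.62 ± 0.31), and Slc16a1 at 3.80 and 3.46 against 11.1, 13.1 and 22.6 (log2 2.35 ± 0.39). Slc2a3, a high-affinity glucose transporter, overlapped, with 4.94 and 6.57 in WT and 0, 13.1 and 29.1 in Ikkb_cKO (log2 1.83 ± 0.56, adjusted p = 0.0423).

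Among the glycolytic enzymes Hk2, which also rose in fibroblast-like cells, was called, as were Pfkp, Pgk1, Gapdh and Pkm, which were not called there. Hk2 stood at 29.3 and 27.3 normalised CPM in WT and at 119, 99.6 and 145 in Ikkb_cKO (log2 2.13 ± 0.24, adjusted p = 0.000231), and Pfkp at 76.4 and 81.7 against 293, 231 and 301 (log2 1.81 ± 0.20, adjusted p = 0.000240). Pgk1 rose from 109 and 115 to 224, 233 and 331 (log2 1.25 ± 0.22, adjusted p = 0.00306), Gapdh from 600 and 599 to 1026, 904 and 866 (log2 0.63 ± 0.16) and Pkm from 208 and 213 to 296, 370 and 312 (log2 0.63 ± 0.18). The groups did not overlap for any of these 5 genes. Ldha was at 306 and 362 in WT and 440, 385 and 419 in Ikkb_cKO and was not called (adjusted p = 0.231). Ldhb had 15 UMIs in WT and 1 in Ikkb_cKO and was not tested.

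Vegfa had the largest called rise in this class, from 2.66 and 4.84 normalised CPM to 27.6, 47.2 and 53.8 (log2 3.59 ± 0.37, adjusted p = 0.000128). Hif1a rose from 71.1 and 65.4 to 152, 168 and 99.1 (log2 0.98 ± 0.25, adjusted p = 0.0213). Ankrd37 rose from 4.56 and 5.19 to 24.9, 34.1 and 15.6 (log2 2.07 ± 0.40). Ndrg1 stood at 7.60 and 5.88 in WT and at 24.9, 31.4 and 208 in Ikkb_cKO, where library 3 alone was high, and was not called (adjusted p = 0.0539). The dissociation list ran downward in this class, with a sum of 15786 and 13932 CPM in WT and 9775, 12093 and 10425 in Ikkb_cKO, 8 of 20 genes lower and 2 higher; its part in the result was not tested.

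The myeloid makeup differed as well. C1q/Pf4 macrophages, a resident type, were 54.9% and 52.0% of the class in WT and 5.38%, 13.3% and 20.1% in Ikkb_cKO, while the Retnla/Ear2/Lyz1 monocyte-derived cells were 30.7% and 29.8% against 46.9%, 57.0% and 46.7%. Within the monocyte-derived cells 9 of 24 members tested were higher and 0 lower by edgeR, with 16 at an unadjusted p below 0.05 and 6 higher and 0 lower by DESeq2 (16.5% of 6230 genes called); 5 were higher without WT library 1 and 4 without WT library 2. Their median log2 fold change was 1.01 against -0.00 for all genes. Vegfa stood there at 8.17 and 11.5 normalised CPM in WT and 72.1, 70.5 and 101 in Ikkb_cKO (log2 3.14 ± 0.36, adjusted p = 6.34e-06). Pgk1 stood at 128 and 137 against 351, 352 and 411 (log2 1.50 ± 0.22, adjusted p = 9.6e-05), and Slc16a3 at 98.0 and 93.5 against 189, 311 and 228 (log2 1.34 ± 0.26). Hk2, Hif1a, Pfkp, Pfkl, Slc16a1 and Ndrg1 rose too, whereas Gapdh was not called there (log2 0.22 ± 0.17).

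Dendritic cells with high MHC class II showed less: 2 of 19 members were higher and 0 lower by edgeR, with 6 at an unadjusted p below 0.05 and 2 higher and 0 lower by DESeq2 (5.26% of 4657 genes called). These were Hk2, from 21.5 and 31.1 normalised CPM to 98.3, 80.7 and 116 (log2 1.93 ± 0.36, adjusted p = 0.0127), and Pfkp, from 184 and 177 to 407, 323 and 421 (log2 1.10 ± 0.22, adjusted p = 0.0165). Without WT library 1 no member was called there, and none without WT library 2. Vegfa had no UMI in dendritic cells of 4 libraries and 17 in Ikkb_cKO library 3. Whether the subtypes differ in their response was not tested.

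**Figure D4:**
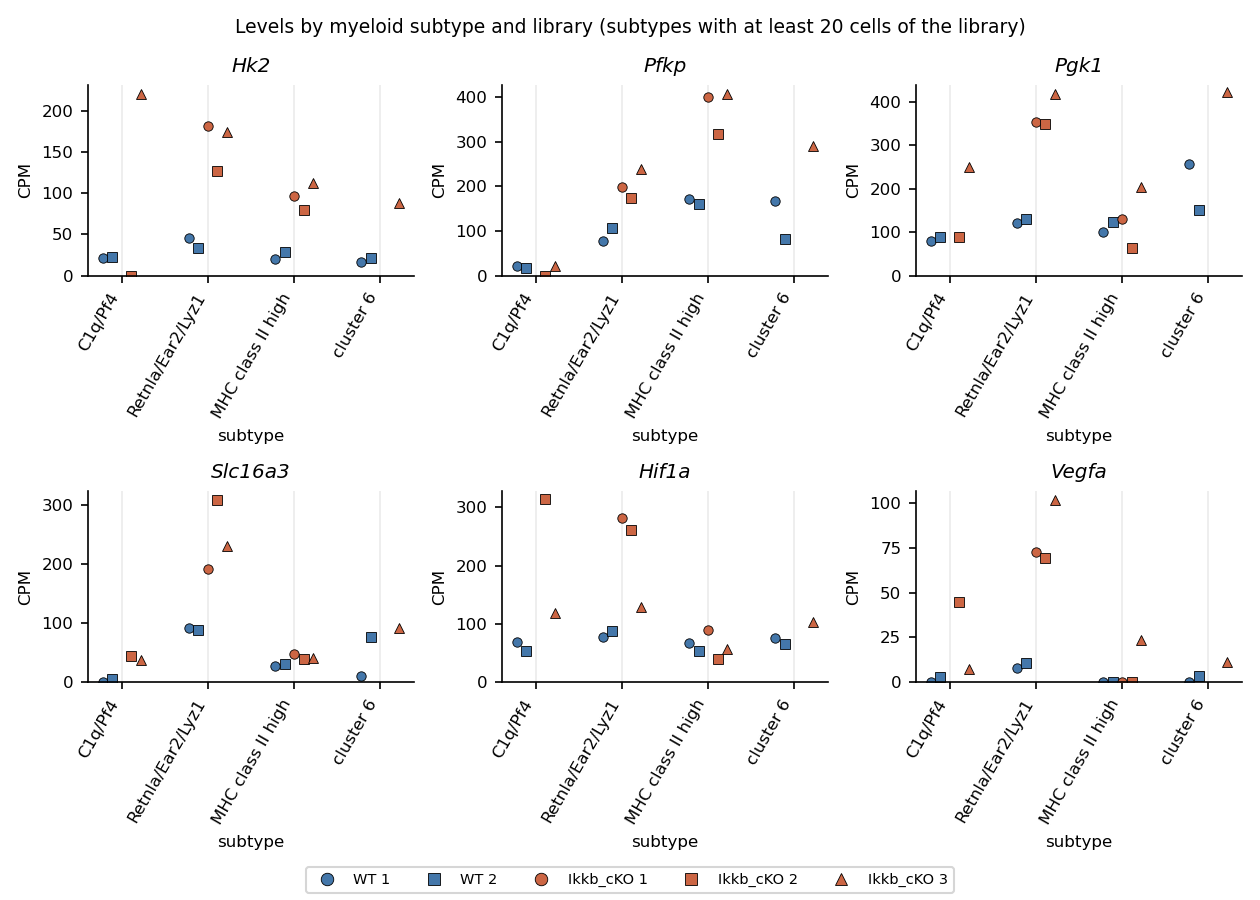
CPM of 6 members by myeloid subtype (horizontal) for each library with at least 20 cells of the subtype; blue is WT, orange Ikkb_cKO, and the shape gives the library. Slc16a3, Pgk1 and Vegfa of Ikkb_cKO stand above WT in the monocyte-derived cells, and Pfkp above WT in these and in the dendritic cells.

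Lymphocyte-like cells showed 5 members higher and 0 lower of 24 tested by edgeR; 6 had an unadjusted p below 0.05, and DESeq2 called 5 higher and 0 lower. Over all 5209 genes 11.0% were called, 6.64% higher and 4.34% lower, and the median log2 fold change was 0.60 over the members and 0.02 over all genes. The genotypes did not overlap for 13 of the 24, against 49.0% of all genes. Hif1a stood at 90.0 and 87.7 normalised CPM in WT and at 424, 397 and 344 in Ikkb_cKO (log2 2.12 ± 0.22, adjusted p = 0.000161). The 3 Ikkb_cKO libraries were close to each other and far above both WT libraries. A Hif1a UMI was seen in 16.2% and 21.9% of WT cells and in 44.3%, 47.5% and 47.5% of Ikkb_cKO cells, at 1000 UMIs per cell in 10.6% and 11.1% against 31.8%, 28.8% and 25.9%. Egln3 rose from 16.1 and 11.7 to 83.8, 104 and 73.1 (log2 2.61 ± 0.40, adjusted p = 0.00186), Ndrg1 from 16.1 and 2.92 to 72.5, 61.7 and 71.0 (log2 2.87 ± 0.49, adjusted p = 0.00326) and Vegfa from 12.9 and 2.92 to 65.7, 29.6 and 50.6 (log2 2.64 ± 0.60, adjusted p = 0.0155). The WT values of these genes rest on few UMIs, 5 and 4 for Egln3, 5 and 1 for Ndrg1 and 4 and 1 for Vegfa. Gapdh rose from 1000 and 883 to 1525, 1728 and 1502 (log2 0.75 ± 0.15, adjusted p = 0.00929).

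The rest of the pathway in lymphocyte-like cells showed no call, with Ldha at 958 and 1035 normalised CPM in WT and 1051, 977 and 830 in Ikkb_cKO and Aldoa at 566 and 497 against 657, 548 and 550. Of 14 further hypoxia genes tested 5 rose, among them Ero1l, an oxidase of the endoplasmic reticulum, from 113 and 78.9 to 548, 427 and 415 (log2 2.27 ± 0.24), and Bhlhe40, a transcription factor, from 212 and 269 to 990, 817 and 568 (log2 1.71 ± 0.25), both named after their values were seen. Of the members called in this class, Hif1a alone kept its call without WT library 2, in a fit with 1 WT sample left. Most calls over all genes were lost there too, so that the losses are not particular to the members. Over all settings the log2 fold change ran from 1.85 to 2.22 for Hif1a, 1.73 to 2.85 for Egln3 and 2.09 to 4.47 for Ndrg1. It ran from 1.93 to 3.98 for Vegfa and from 0.63 to 0.85 for Gapdh. The summed fibroblast marker level in this class was 272 and 316 CPM in WT and 677, 569 and 195 in Ikkb_cKO. Its part in the result was not tested. The lymphocyte makeup shifted too. A cluster led by Areg, Il13 and Il5 supplied 26 of 130 and 26 of 114 WT lymphocyte-like cells. For Ikkb_cKO it supplied 140 of 230, 102 of 179 and 197 of 509. Another cluster, led by Ccl5 and Gzmc, supplied 59 and 53 of the WT total, against 30, 14 and 168. Whether the rises occurred within lymphocyte clusters was not tested.

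Across the 3 classes, 22 members were tested in each. Hif1a and Vegfa were called higher in every class, and 7 members were higher in both fibroblast-like and myeloid-like cells. Another 11 were called in none, but of these Pfkm, Pfkfb3, Pfkfb4 and Aldoc were not tested in every class. These overlaps have no count over all genes beside them, so their size cannot be judged. Whether the genotype effect differed between classes was tested directly, with library as a block. Between myeloid-like and fibroblast-like cells it differed for 12 of 27 members (19.7% of 8006 genes called). Slc16a3 (difference of log2 fold changes -2.37 ± 0.34) and Slc2a1 (-1.30 ± 0.34) rose more in fibroblast-like cells. Aldoa (1.36 ± 0.18), Ldha (1.24 ± 0.19), Vegfa (1.25 ± 0.38), Pfkp (1.15 ± 0.35) and Pgk1 (1.07 ± 0.19) went further up, or less far down, in myeloid-like cells. Between lymphocyte-like and fibroblast-like cells it differed for 5 of 23 members (7.32% of 4756 genes called): Slc16a3, Slc2a1, Aldoa, Gapdh and Ldha. The effect on Hif1a was not called different in either contrast (adjusted p = 0.134 and 0.466), which does not show that it was equal: it was called in the first without Ikkb_cKO library 2 (difference -1.20 ± 0.29, adjusted p = 0.0245) and in the second without Ikkb_cKO library 3 (0.66 ± 0.23, adjusted p = 0.0478). Without WT library 1 the first contrast left 2 members (Aldoa and Slc16a3) and the second 1 (Aldoa); without WT library 2 they left 3 each.

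**Figure D5:**
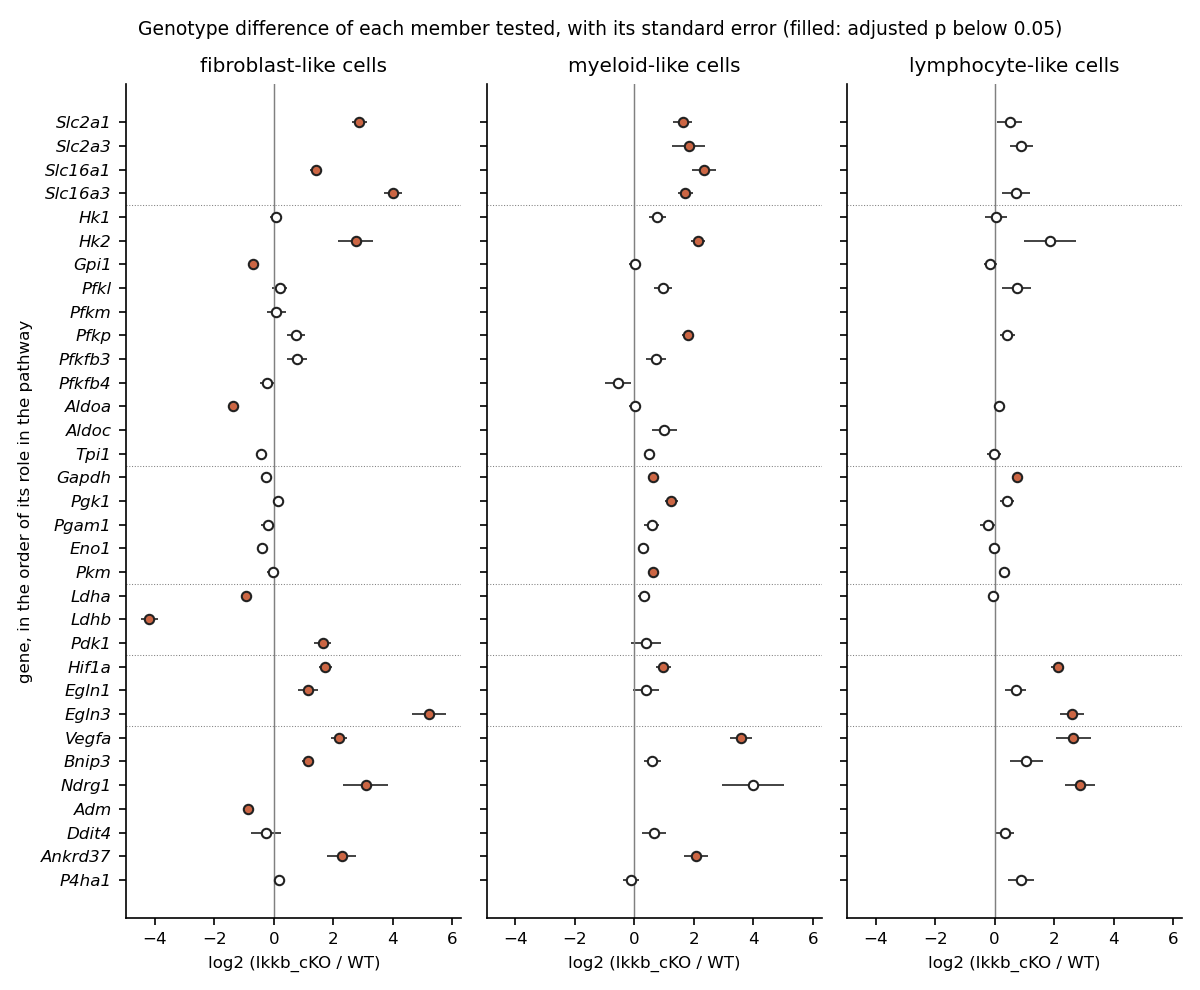
Log2 ratio of Ikkb_cKO to WT for each member tested (points) with its standard error (bars), in fibroblast-like, myeloid-like and lymphocyte-like cells; filled points have an adjusted p below 0.05 and dotted lines separate the roles. Hif1a and Vegfa are filled in all 3 classes, and the filled points below 0 (Gpi1, Aldoa, Ldha, Ldhb and Adm) stand in the fibroblast-like panel.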

How the data were processed

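The authors deposited a matrix of UMI counts per gene and cell for each library, unnormalised and with 11084 barcodes in all, aligned to mm10 with Cell Ranger 1.3.0 per the submitters' processing notes; the file headers give software version 3.0.1. Barcodes were kept from 300 detected genes upward and up to a mitochondrial share of 10%, and 221 doublets (1.99% of barcodes) were removed at the expected rate, since Scrublet's automatic threshold marked 25 (0.226%). Cells were clustered with scanpy 1.11.5 (2000 variable genes, of which the 12 members were left out, 30 components, 15 neighbours, Leiden resolution 1.0), giving 33 clusters, of which 30 were named from markers and 3, with 87 cells, were not.

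Summed counts of each class in each library were tested with edgeR 4.0.16 (quasi-likelihood, TMM, filterByExpr with a minimum count of 10; R 4.3.3), with Benjamini-Hochberg adjustment over all genes tested and a threshold of 0.05. Alternatives used DESeq2 1.42.0 and limma 3.58.1. The script was tested on simulated data. Symbols on several lines (35) were kept apart. All members are accounted for in fibroblast-like cells, members past the threshold are named elsewhere, and up to 4 genes with the smallest p per further list. The members and lists were chosen with earlier results of these data known. The labels do not state that replicate numbers pair the libraries. Deviations of same-numbered fibroblast-like libraries correlated at 0.03 and -0.05. With 2 WT libraries, whose deviations mirror each other, this cannot exclude pairing.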

Additional observations from a re-analysis of the deposited data

Results flagged for a closer look

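A test of the difference between cell classes singled out 12 members for myeloid-like against fibroblast-like cells and 5 for lymphocyte-like against fibroblast-like cells. Values are differences of the log2 Ikkb_cKO to WT ratio, from edgeR with adjustment over all genes. In myeloid-like cells the ratio exceeded that in fibroblast-like cells by 1.36 for Aldoa, 1.25 for Vegfa, 1.24 for Ldha, 1.15 for Pfkp and 1.07 for Pgk1. Smaller differences in the same direction were 0.95 for Tpi1, 0.89 for Gapdh, 0.74 for Pgam1, 0.67 for Eno1 and 0.66 for Gpi1. The difference was -2.37 for Slc16a3 and -1.30 for Slc2a1, both with a larger rise in fibroblast-like cells. In lymphocyte-like cells it was 1.50 for Aldoa, 1.03 for Gapdh, 0.87 for Ldha, -2.35 for Slc2a1 and -3.32 for Slc16a3. Aldoa was the member called in both contrasts when each library was left out in turn. The classes also differed in their shift in subtypes, and its part in these differences was not tested.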

How the results depend on the processing

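Of 1726 single-member values under 21 alternatives and 1 further one chosen after seeing the data, 91 lost the call and 54 gained it. Of the others 1513 kept direction and side, and 68 changed sign without being called in either setting. Wide ranges over all settings were those of Pfkp (-0.23 to 1.04) and Ddit4 (-1.46 to 0.10) in fibroblast-like cells. Each of these was called in 3 of 23 settings. Egln1 in myeloid-like cells ran from -0.33 to 0.92 and was called in 0 of 22. No called value changed sign. With 1 library left out, fibroblast-like cells gave 5 to 13 higher and 2 to 10 lower members (12 and 5), myeloid-like cells 6 to 15 higher (12) and lymphocyte-like cells 1 to 6 (5). Dendritic cells gave 0 to 3 higher and 0 to 1 lower (2 and 0), monocyte-derived cells 4 to 11 higher (9), cluster 1 2 to 5 higher and 0 to 1 lower (5 and 1), cluster 4 3 to 4 higher and 1 to 2 lower (3 and 2), and cluster 5 2 to 4 higher and 1 to 3 lower (2 and 3). Effects that differed between classes numbered 2 to 13 for myeloid-like (12) and 1 to 9 for lymphocyte-like cells (5). In the 3 classes the lowest counts came from leaving out a WT library. Such fits leave 1 WT sample, in the subtypes as well. In the 3 classes far fewer genes were called in them over all genes too.

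Summing alike libraries left 1 WT sample. Few calls then remained in fibroblast-like cells and none in lymphocyte-like cells, among the members and over all genes alike. In these classes the setting therefore cannot judge the members. Cells thinned to 1000 UMIs gave 7 higher and 5 lower of 27 members tested in fibroblast-like cells. Over all 7323 genes tested there, 931 were higher and 1083 lower. In lymphocyte-like cells thinning gave 2 higher of 13 members tested, and 147 higher and 69 lower of 2456 genes. Fibroblast clusters present in every library gave 6 higher and 3 lower of 24 members, and 943 higher and 1030 lower of 7170 genes. Voom gave 10 lower in fibroblast-like cells, where lower calls over all 10538 genes went from 1887 to 2369. In cluster 1, DESeq2 gave 3 higher and 0 lower and plain library size 0 lower. Plain library size moved the median of all genes in lymphocyte-like cells from 0.02 to -0.10. With the replicate number as a block, 9 of 31 members were lower and 13 higher in fibroblast-like cells. Calls were common there, with 2713 higher and 2712 lower of 10538 genes. In cluster 1 the block gave 0 members higher and 0 lower. The labels do not state that the numbers pair the libraries. The cause of these shifts was not tested.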
